A study of Mus musculus with 5 samples.

Results

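The amylase gene cluster of the mouse comprised 7 of the 55573 genes measured: Amy1, Amy2a1, Amy2a2, Amy2a3, Amy2a4, Amy2a5 and Amy2b, chosen by gene symbol and described both singly and as their sum. Total RNA was sequenced from 3 Th-Cre:MYC tumours and, as the control, from the pancreas of 2 Wild Type littermates. The tumour mice came from a cross of TH-Cre with CAG-STOPflox/flox-MYC animals, in which Cre driven by the tyrosine hydroxylase promoter switches on a MYC transgene in cells that have used that promoter, and tumour growth was followed by ultrasound. The title of the series calls the animals a neuroblastoma model. The normal pancreas was perfused with the RNase inhibitor RNAlater before removal, and no such step is stated for the tumours, so genotype, tissue and perfusion cannot be told apart. The library names begin with number series that differ between tumours and normal pancreas, and the labels do not say what these mean. Any difference in preparation that follows the groups cannot be told apart from them. The labels give no age or sex, and the titles of tumours 1 and 2 share a number without saying whether they share an animal, so p-values reflect only how far these particular libraries vary, and some of that variation may be technical.

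Alpha-amylase cuts the internal bonds of starch and glycogen into short sugars. Acinar cells of the exocrine pancreas make the Amy2 enzymes among their most abundant products, store them with proteases and lipases in zymogen granules, and release them into the gut when food arrives. Amy1 is the salivary form, made in the parotid gland and at a lower level in the liver. In acinar cells, the genes of digestive enzymes are switched on by the PTF1 complex, which contains the factors Ptf1a and Rbpjl and binds E-box motifs in their promoters.

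All 7 genes lay on the minus strand of chromosome 3 within 459044 bases (GRCm38, chr3:113147656-113606699), with the pseudogene Amy2-ps1 between Amy2b and Amy2a5. Amy2a5, Amy2a4, Amy2a3 and Amy2a2 followed each other with gaps of 21005, 21005 and 21002 bases. Amy2a1 stood apart, 172744 bases beyond Amy2a2, and Amy1 came next at chr3:113555710-113606699. Amy2b is a protein-coding gene in RefSeq and an unprocessed pseudogene in the GENCODE M21 annotation, whose gene identifiers match the deposited table.

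**Figure D1:**
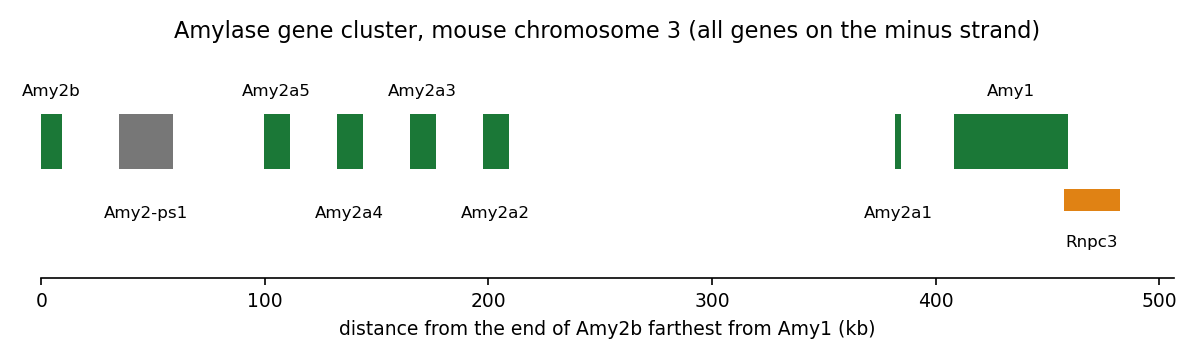
Map of the amylase cluster, with the distance along chromosome 3 in kb on the horizontal axis and boxes that span the annotated genes. The 7 amylase genes are green, the pseudogene Amy2-ps1 is grey and the next gene, Rnpc3, whose annotated span overlaps the end of Amy1, is orange. Amy2a5 to Amy2a2 sit at even spacing and Amy2a1 is far from them.

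The copies are too alike for reads to tell most of them apart, which bears on every single-copy value below. The 1524-base coding sequences of Amy2a2, Amy2a3, Amy2a4 and Amy2a5 were identical, and the partial coding sequence annotated for Amy2a1 (735 bases) matched them without a difference. The coding sequence of Amy1 was 89.7% identical to that of Amy2a4 (159 differences). The Amy2b transcript matched the Amy2a4 coding sequence at 98.0% of positions (30 differences). The next lines show 60 bases of coding sequence, 5′ to 3′ (bases 187 to 246 of Amy2a4, from the GENCODE M21 transcripts), with letters that differ from Amy2a4 in capitals. The first line stands for all 5 Amy2a genes, which are the same here, while Amy2b has 6 differences in this stretch and Amy1 has 10.
Amy2a4: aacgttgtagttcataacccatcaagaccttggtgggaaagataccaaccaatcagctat
Amy2b: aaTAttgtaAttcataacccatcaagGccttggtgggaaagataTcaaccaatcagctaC
Amy1: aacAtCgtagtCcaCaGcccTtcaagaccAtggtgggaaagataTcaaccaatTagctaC

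Promoters of all 7 genes were matched by symbol in the RefSeq table (GRCm38.p6), with 2 start sites for Amy1. The windows below are the 250 bases before the annotated start, 5′ to 3′ on the minus strand, and are shown because the factors that bind the motifs searched are among the genes measured below. The motifs searched, on both strands and in capitals, were the E-boxes CACCTG and CAGCTG, the TATA box TATAAA, and TGGGAA, the core of sites for Rbpj and Rbpjl. No matches overlapped.
Amy2a5, chr3:113258700-113258949: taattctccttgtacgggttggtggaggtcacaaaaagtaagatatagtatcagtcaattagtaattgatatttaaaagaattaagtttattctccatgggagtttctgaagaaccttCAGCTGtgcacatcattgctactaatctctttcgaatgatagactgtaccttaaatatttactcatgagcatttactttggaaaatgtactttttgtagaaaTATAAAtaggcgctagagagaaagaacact
Amy2b, chr3:113156728-113156977: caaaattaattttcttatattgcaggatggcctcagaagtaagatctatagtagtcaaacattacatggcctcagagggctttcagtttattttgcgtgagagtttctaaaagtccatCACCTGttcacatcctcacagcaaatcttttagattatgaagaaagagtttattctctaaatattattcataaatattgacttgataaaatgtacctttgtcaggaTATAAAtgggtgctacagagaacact
Amy2a4, chr3:113291450-113291699: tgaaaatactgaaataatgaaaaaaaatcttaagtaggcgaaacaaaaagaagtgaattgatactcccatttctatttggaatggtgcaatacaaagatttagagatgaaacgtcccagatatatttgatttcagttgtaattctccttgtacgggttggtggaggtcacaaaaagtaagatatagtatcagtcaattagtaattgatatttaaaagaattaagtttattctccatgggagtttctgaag
Amy1, downstream start, chr3:113574763-113575012: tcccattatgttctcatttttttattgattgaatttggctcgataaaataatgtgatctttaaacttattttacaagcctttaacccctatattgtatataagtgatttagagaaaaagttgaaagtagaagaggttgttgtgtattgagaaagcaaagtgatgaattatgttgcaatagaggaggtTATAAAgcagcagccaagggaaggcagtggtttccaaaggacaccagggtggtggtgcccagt

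Amy2a5 held CAGCTG and Amy2b held CACCTG, each beginning 132 bases before the start, with TATAAA 30 and 26 bases before it. CAGCTG occurs in 13.0% and CACCTG in 17.2% of the 32851 windows of this length in the RefSeq table, TATAAA in 12.4% and TGGGAA in 21.6%. The Amy2a4 window is shared letter for letter by Amy2a3 and Amy2a2, differs from that of Amy2a1 by 10 edits, and holds none of these motifs. RefSeq places the start of these 4 genes farther upstream, so the Amy2a5 window begins at base 139 of the Amy2a4 window and CAGCTG falls 7 bases after the Amy2a4 start. The downstream Amy1 start had TATAAA 63 bases before it, and the upstream start, 2988 bases away, had TGGGAA on the reverse strand.

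Amylase messages were a trace in the tumours and among the most abundant RNAs of normal pancreas. The 7 genes together held 0.00299%, 0.000631% and 0.0851% of the estimated counts in tumours 1, 2 and 3, against 34.8% and 35.3% in normal pancreas 1 and 2. The groups did not overlap: the lowest normal share was 409 times the highest tumour share. Tumour 3 stood apart from the other tumours, with a share 28.5 times that of tumour 1 and 135 times that of tumour 2. In counts these shares were 450, 79.5 and 5624 amylase counts of 15074489, 12601496 and 6611967 in the tumours, against 1.70e+07 of 48848987 and 1.83e+07 of 51669489 in normal pancreas. The counting interval (Wilson, 95%) ran from 0.000510% to 0.000790% in tumour 2, the library with the least amylase, so counting error is small beside the differences between tumours. In bulk tissue, fewer acinar cells and less amylase RNA per cell cannot be told apart.

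The mean share was 0.0296% ± 0.0481 in tumours (SD, n = 3) and 35.0% ± 0.396 in normal pancreas (SD, n = 2), with p = 0.1 in a two-sided exact permutation test, the smallest p that 10 splits of 3 against 2 libraries can give. Per length, the summed level was 6.61, 1.21 and 134 TPM in the tumours, against 189978 and 207578 TPM in normal pancreas. In the tumours this was 0.000661%, 0.000121% and 0.0134% of all TPM, but 0.00385%, 0.000851% and 0.102% of protein-coding TPM. In normal pancreas it was 19.0% and 20.8% of all TPM, and 19.3% and 21.0% of protein-coding TPM. Other RNA classes therefore held most TPM in the tumours and little in normal pancreas. That lowers every tumour TPM value given here beside normal pancreas. Tested as a single row in edgeR's quasi-likelihood fit over all genes, the sum had a log2 fold change of -13.25 (SE 5.25) with an adjusted p of 0.0610, which misses the threshold of 0.05. The call turned on tumour 3: without tumour 3 the log2 fold change was -17.44 (SE 2.41) and the adjusted p 0.00270, while without tumour 1 or tumour 2 the adjusted p was 0.266 and 0.209. The scaling behind these fold changes placed the median of all genes at a log2 fold change of 0.38, whereas dividing by total counts alone placed it at 3.55 and gave the sum -10.21 with an adjusted p of 0.00821.

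All 7 single genes were lower in the tumours by edgeR (adjusted p under 0.05). The transcripts of Amy2a2, Amy2a3 and Amy2a4 are identical, so their 3 rows are not separate measurements. Their sum did not pass (edgeR adjusted p = 0.0601). Counts of genes that passed take these rows as 3 genes. Across all 16810 genes tested, 27.8% were called lower, and every tumour lay below both normal libraries in CPM in 34.2%. The smallest adjusted p values were those of Amy1 and Amy2b, the members with the fewest counts in normal pancreas. The call for the 3 copies with identical transcripts was the least firm. Amy2a4, the copy with the most counts in normal pancreas, had an adjusted p of 0.0421 by edgeR, which became 0.140 without tumour 1, 0.0947 without tumour 2, and 0.0725 and 0.0693 without normal pancreas 1 and 2. With tumours 1 and 2 summed, in case they share an animal, the edgeR adjusted p was 0.0708 for Amy2a4 and 0.137 for the amylase sum. In that setting 6 of the 7 genes passed, where 5126 of all 17806 genes tested were called lower. Of the 7 genes, 3 passed without tumour 1, where 4691 of 16641 genes tested were called lower. Without tumour 2, 6 passed, where 4822 of 16859 were called lower, and without tumour 3, 7 passed, where 4384 of 17579 were. DESeq2 called 4 lower, where 27.3% of all genes were called lower, and gave the other 3 no adjusted p.

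**Figure D2:**
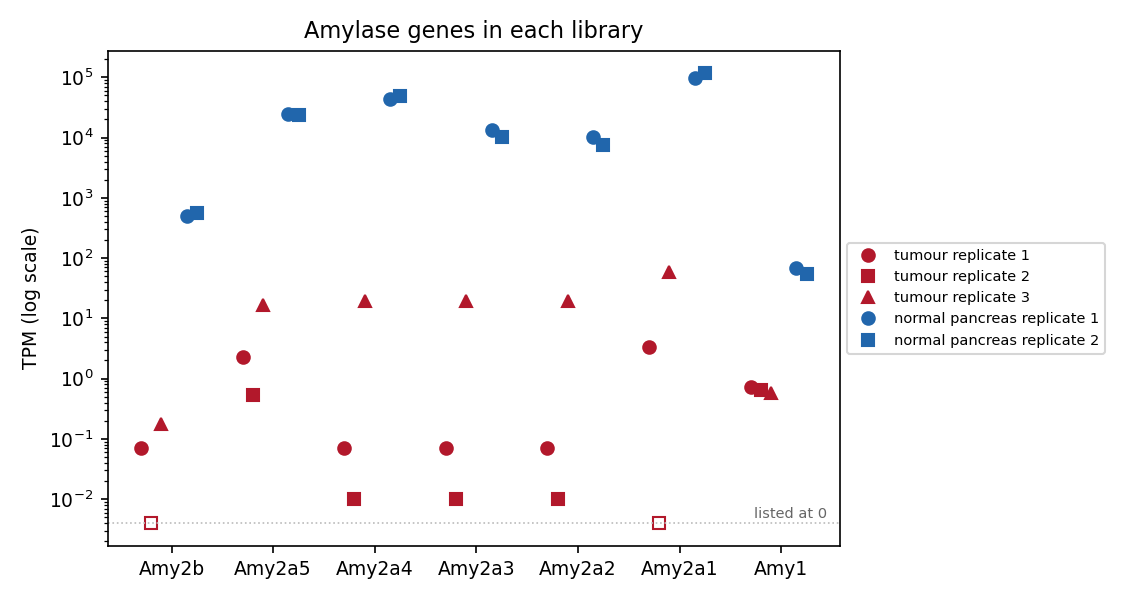
Level of each amylase gene in each library, in TPM on a log scale, with the tumours in red on the left of each pair and normal pancreas in blue on the right. Open squares mark genes listed at 0 in tumour 2. Every normal value lies above every tumour value of the same gene, and the 3 tumour values of Amy1, from 0.57 to 0.74 TPM, lie closer together than those of the Amy2 genes.

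**Figure D3:**
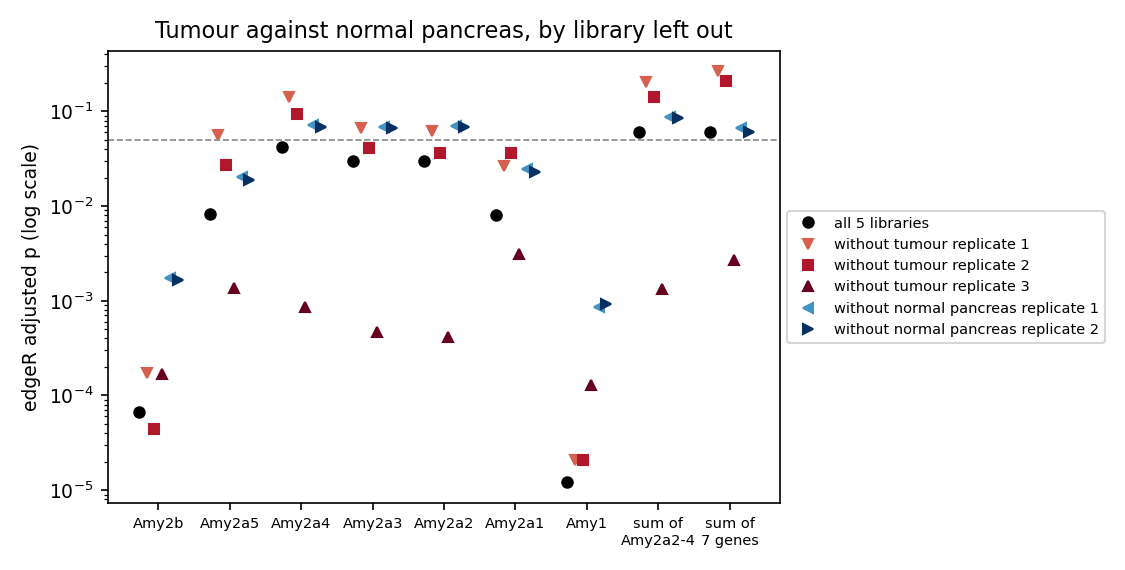
Adjusted p of edgeR's quasi-likelihood test (log scale) for each amylase gene, for Amy2a2 to Amy2a4 summed and for the sum of the 7 genes, with all 5 libraries and with each library left out. The dashed line is the threshold of 0.05. Amy1, Amy2b and Amy2a1 stay below it throughout, while both sums lie above it except without tumour 3.

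Amy2a4, Amy2a3 and Amy2a2 encode the same pancreatic enzyme from transcripts of 3717 bases that were identical in every base, so no stretch of 50 to 150 bases assigns a read to one of them. Each had 10.76, 1.40 and 1423 estimated counts in tumours 1, 2 and 3, the same value for all 3 genes in each tumour. In normal pancreas 1 and 2 the estimates differed between the genes: 6795192 and 7911937 for Amy2a4, 2086060 and 1669015 for Amy2a3, and 1539913 and 1208995 for Amy2a2. Nothing in the annotated transcripts distinguishes these 3 rows, so the unequal split in normal pancreas is an output of the estimate and is not a measured difference between copies. Their sum does not depend on that split. It came to 0.21, 0.03 and 58.65 TPM in the tumours, against 67879 and 66277 TPM in normal pancreas. In edgeR the summed row had a log2 fold change of -12.97 (SE 5.11) with an adjusted p of 0.0601, and of -20.55 with an adjusted p of 0.00134 without tumour 3.

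Amy2a5, which shares the coding sequence of these copies, has an annotated transcript that differs from theirs by 61 edits, and 52.2% of its 75-base stretches occur in no other amylase gene. It had 2.29, 0.54 and 16.9 TPM in the tumours, against 24843 and 24067 TPM in normal pancreas. No tumour came near either normal library, and tumour 3 was again the highest. The edgeR log2 fold change was -14.19 (SE 3.23) with an adjusted p of 0.00822, which became 0.0563 without tumour 1. Amy2a5 also has a short annotated transcript with a retained intron (542 bases). The mean transcript length deposited for the gene implies that this form held 23.7%, 53.7% and 67.2% of the molecules assigned to Amy2a5 in the tumours, against 9.34% and 11.2% in normal pancreas. Every tumour was above both normal libraries, although the short form held only 3.03%, 10.4% and 17.3% of the Amy2a5 counts in the tumours, against 1.09% and 1.34% in normal pancreas, and about 4 counts in tumour 2.

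Amy2a1 is annotated with a partial transcript of 890 bases, short beside those of its neighbours, which raises its level per length. It had 3.30, 0 and 57.9 TPM in the tumours, against 96695 and 116622 TPM in normal pancreas, the highest TPM of the cluster there. By counts it was close to Amy2a5, with 3034239 and 3899863 in normal pancreas 1 and 2, where Amy2a5 had 3493606 and 3523588. Only 43 of its 816 stretches of 75 bases occur in no other amylase gene. By counting error alone, the 0 in tumour 2 allows up to 2.38e-05% of that library's counts. That limit does not cover the split of shared reads. Amy2a1 reads there could sit among the 37.79 counts of Amy2a5 or the 1.40 counts of each of Amy2a2, Amy2a3 and Amy2a4. The edgeR log2 fold change was -13.63 (SE 3.09) with an adjusted p of 0.00816.

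With the 3 identical copies taken as their sum, the order of the levels per length in normal pancreas was Amy2a1 (96695 and 116622 TPM), Amy2a2 to Amy2a4 summed (67879 and 66277 TPM), Amy2a5, Amy2b and Amy1, and the ranges of neighbours in this order did not overlap. The copies within the sum are not ranked, since their split is not measured, and Amy2a1 owes its place in part to its short annotated transcript. The value of Amy2a1 also depends on the split of shared reads. By counts the summed copies (1.04e+07 and 1.08e+07) stood above Amy2a1 (3034239 and 3899863) in normal pancreas 1 and 2. In tumours 1 and 2 Amy1 (0.74 and 0.64 TPM) was above the summed copies (0.21 and 0.03 TPM).

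Amy2b, the outermost gene of the cluster, can be told from the others at 78.0% of its 75-base stretches. It had 4.20, 0 and 5.27 estimated counts in the tumours, against 30040 and 36119 in normal pancreas. The groups did not overlap, and with so few counts the tumours can hardly be ranked among themselves. The level was 0.07, 0 and 0.18 TPM in the tumours, against 492 and 557 TPM in normal pancreas, and the edgeR log2 fold change was -14.32 (SE 0.96) with an adjusted p of 6.73e-05. The pseudogene Amy2-ps1 had 0 counts in all tumours, against 3 and 4 counts in normal pancreas, too few to be tested.

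**Figure D4:**
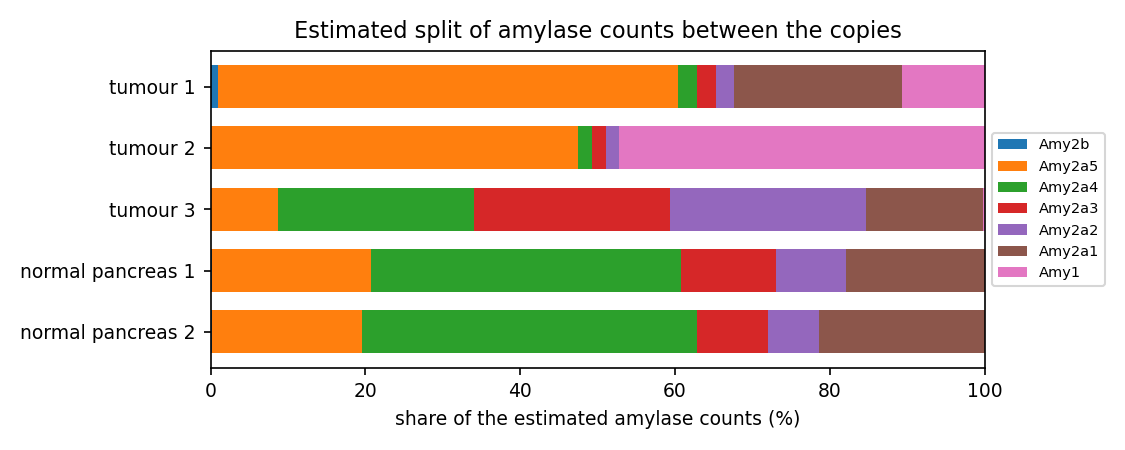
Estimated split of the amylase counts of each library between the 7 genes, in % of the summed amylase counts, with tumours above and normal pancreas below. Normal pancreas is similar in both libraries, while Amy2a5 holds 59.5% in tumour 1 and Amy1 holds 47.2% in tumour 2. In tumour 3, Amy2a4, Amy2a3 and Amy2a2 hold 25.3% each.

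Amy1, the salivary form, was the least abundant amylase in normal pancreas and varied least among the tumours. It had 0.74, 0.64 and 0.57 TPM in the tumours, against 69.0 and 55.1 TPM in normal pancreas. The tumour values rest on few reads, 48.1, 37.55 and 15.01 estimated counts, against 4620 and 3981 in normal pancreas. The tumour mean was 0.650 ± 0.0854 TPM (SD, n = 3), with tumour 3 no higher than the others. For each of the 5 Amy2a genes, by contrast, tumour 3 was the highest tumour. The edgeR log2 fold change was -8.08 (SE 0.20) with an adjusted p of 1.21e-05, and the gene passed in each of the 15 alternative fits. Amy1 kept 3.72%, 3.47% and 2.65% of its mean normal share of counts in tumours 1, 2 and 3, whereas the 6 Amy2 genes together kept 0.00761%, 0.000951% and 0.242%. Within the cluster, Amy1 therefore held 10.7%, 47.2% and 0.267% of the amylase counts in the tumours, against 0.0272% and 0.0218% in normal pancreas. Every tumour was above both normal libraries, but the tumours differed so widely among themselves that the exact permutation test gave p = 0.5 (two-sided). The exact 95% interval in tumour 2, which rests on 80 amylase counts, ran from 36.2% to 59.0%.

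Reads from the upstream end of Amy1 can also match its neighbour. One of the 5 annotated Amy1 transcripts (1568 bases) has 1128 bases, or 71.9%, inside exons of Rnpc3, a component of the minor spliceosome, and shares 1054 of its 1494 stretches of 75 bases with Rnpc3 transcripts. Rnpc3 had 376, 263 and 143 estimated counts in the tumours, against 49.4 and 48.0 in normal pancreas, and rose with a log2 fold change of 1.37 (SE 0.20, edgeR adjusted p = 0.00123). Between the groups Rnpc3 thus moved opposite to Amy1. Among the tumours, the estimated counts of both genes had the same order, highest in tumour 1 and lowest in tumour 3. That is also the order of library depth. How many Amy1 counts in the tumours came from the shared exons was not tested. Markers of the salivary gland were at or near 0: 9 of 11, including Bpifa2, Smgc, Dcpp1, Prb1 and Lpo, had 0 counts in every library, and Car6 and Muc19 had 2 counts each in a single tumour. Of 8 liver markers, 4 of the 5 tested rose by edgeR, where 39.2% of all genes rose. By limma on log2(TPM + 1) 2 of the 5 rose, where 10665 of 16810 genes rose. Those that rose by edgeR included the protease inhibitor Serpina1a, one of several near-identical paralogs (43.5, 23.7 and 18.6 TPM in the tumours, against 0 and 0.05 TPM in normal pancreas), the tyrosine-degrading enzyme Tat and the lipoprotein Apob. Albumin did not pass (adjusted p = 0.663 by edgeR), and Cps1, a defining enzyme of liver cells, had 0 counts in every library. The summed liver list was 57.2, 24.8 and 22.6 TPM in the tumours, against 3.64 and 0.43 TPM in normal pancreas. Serpina1a alone made up most of each tumour sum. Albumin, most of the sum in normal pancreas 1, overlapped between groups (8.48, 0.06 and 0.10 TPM in the tumours, against 3.53 and 0.23 TPM in normal pancreas). The part of the liver list in the Amy1 values was not tested. The other protein-coding gene within 500 kb, the cartilage collagen gene Col11a1, also rose (49, 39 and 38 counts in the tumours, against 0 and 1 in normal pancreas; edgeR adjusted p = 0.00331).

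Most other enzymes of the acinar cell fell as well. Of 22 acinar enzymes other than amylase, 20 fell by edgeR, where 27.8% of all genes fell. The trypsinogens Prss3 and Prss1, which share reads with near-identical paralogs, did not pass. In tumour 3 they stood at 47.3% and 337% of their mean normal share of counts. The Prss1 value rests on few counts, 2, 0 and 69.4 in the tumours, against 151 and 162 in the deeper normal libraries. The 22 enzymes had a median log2 fold change of -11.66 against 0.38 over all genes. Their summed share of counts was 0.00768%, 0.00221% and 0.374% in the tumours, against 46.9% and 47.1% in normal pancreas, so tumour 3 again held the most. The enzymes with the smallest p were Ctrc, Cela3a and Try10. Chymotrypsin C (Ctrc) had 0, 1 and 3.29 counts in the tumours, against 4824 and 4965 in normal pancreas. The elastase gene Cela3a had 0 counts in every tumour, against 75.5 and 46.5 in normal pancreas, at least 13.9-fold lower against a floor of 3 counts over the 3 tumours. The trypsinogen gene Try10 had 1.02, 0 and 33.4 counts in the tumours, against 14116 and 15246 in normal pancreas.

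**Figure D5:**
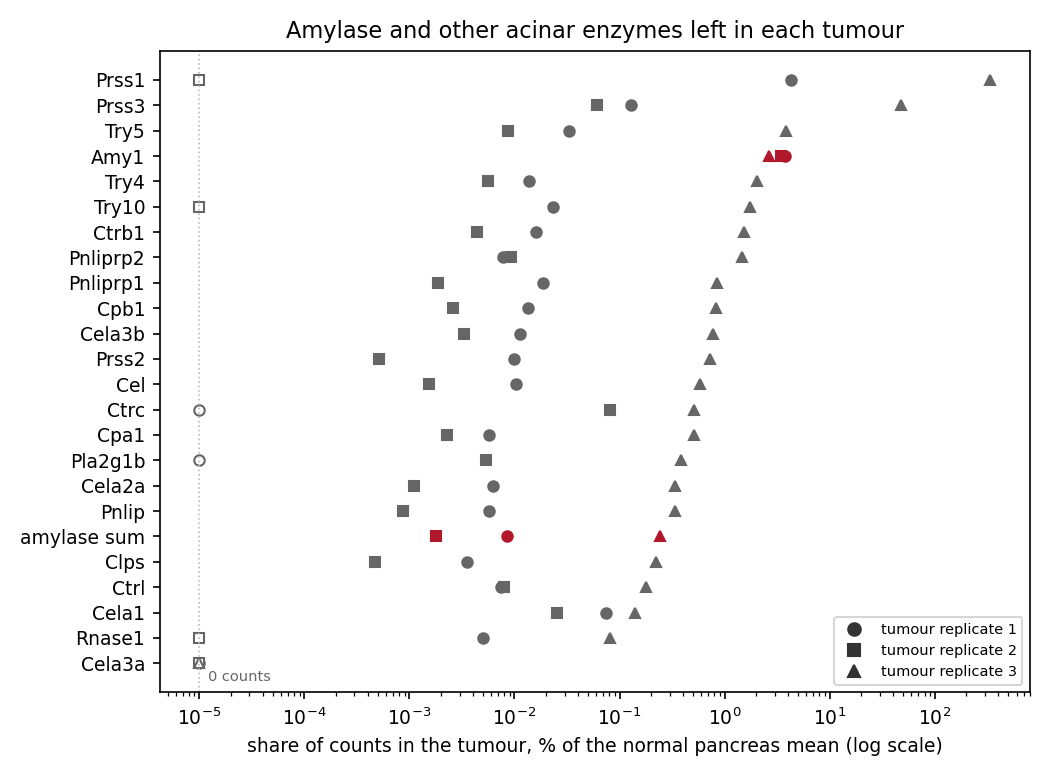
Share of counts left in each tumour, as % of the mean share in normal pancreas (log scale), for the amylase sum and Amy1 in red and for 22 other acinar enzymes in grey. Open symbols mark 0 counts. The amylase sum lies at 0.00852%, 0.00180% and 0.243% in tumours 1, 2 and 3, where 12, 13 and 17 of the other enzymes lie higher. Amy1 lies at 2.65% to 3.72%.

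Amylase was left at 0.00852%, 0.00180% and 0.243% of its mean normal share in tumours 1, 2 and 3. The median of the 22 other enzymes was 0.0101%, 0.00243% and 0.653%. In tumours 1, 2 and 3, 12, 13 and 17 of the 22 enzymes were left at a higher percentage than amylase. Set against the summed counts of those enzymes, a ratio chosen with the values known, amylase stood at 38.9, 28.5 and 22.8 counts per 100 enzyme counts in the tumours, against 74.1 and 74.98 in normal pancreas. All tumours were below both normal libraries (exact permutation p = 0.1, two-sided, the smallest possible). The size of this difference depends on the elastase gene Cela1, which had 476, 135 and 395 counts in the tumours, against 2185770 and 2068621 in normal pancreas. Without Cela1 the ratio was 66.1, 55.2 and 23.1 in the tumours, against 81.9 in both normal libraries (exact permutation p = 0.2, two-sided).

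The 8 genes whose profile over the 5 libraries lay nearest to the amylase sum were all products of acinar cells. By distance between centred log2(TPM + 0.1) values they were the lipase Pnlip (0.862), the elastase Cela2a (0.997), the lipase cofactor Clps, the ribonuclease Rnase1, the carboxypeptidase Cpa1, the granule proteins Zg16 and Sycn, and the ester lipase Cel (1.52). Pnlip had 0.82, 0.17 and 41.4 TPM in the tumours, against 46450 and 47964 TPM in normal pancreas. As for amylase, tumour 2 was the lowest and tumour 3 the highest tumour for Pnlip. Pnlip was picked for its nearness to the amylase profile in these libraries, so the shared order is not a separate result.

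Most listed genes of the granule itself and of the acinar programme fell as well with TMM scaling. Of 8 zymogen granule genes, 7 fell (median log2 fold change -7.59), where 27.8% of all genes fell. With total counts as the only scale, which called 2.37% of all genes lower and 93.3% higher, 5 fell and 1 rose. The SNARE protein gene Vamp8 and the GTPase genes Rab3d and Rab27b had the smallest p with TMM scaling, and all act in granule release. With total counts only, Vamp8 and Rab3d did not pass (edgeR adjusted p = 0.766 and 0.322). Of 10 acinar transcription factors, 6 fell, Tcf12 rose and 3 did not pass, against 27.8% lower and 39.2% higher over all genes. With total counts only 5 fell and 3 rose, against 2.37% lower and 93.3% higher over all genes. Ptf1a, the tissue-specific part of the PTF1 complex, had 0, 0 and 4 counts in the tumours, against 1413 and 1625 in normal pancreas (edgeR adjusted p = 6.03e-05). Its partner Rbpjl had 2, 0 and 35 counts in the tumours, against 1694 and 1754 in normal pancreas (edgeR adjusted p = 0.00221). For both factors tumour 3 held the most of the tumours, as for the Amy2a genes. Gata4 fell likewise (0, 0 and 3 counts in the tumours, against 958 and 1083 in normal pancreas), while Xbp1 and Bhlha15, which serve protein secretion in many cells, fell less (log2 fold changes of -3.13 and -4.75) and stayed detected in every tumour. With total counts only the log2 fold change was 0.05 for Xbp1, which then did not pass, and -1.55 for Bhlha15.

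Receptors through which secretion and amylase output are controlled were also examined. All 5 of the 6 listed that could be tested fell by edgeR with TMM scaling, where 27.8% of all genes fell, and with total counts only 2 fell and 2 rose, where 2.37% of all genes fell and 93.3% rose. The cholecystokinin receptor Cckar had 4, 0 and 24 counts in the tumours, against 9322 and 8875 in normal pancreas (edgeR adjusted p = 0.000618), and the muscarinic receptors Chrm1 and Chrm3 fell too, though the Chrm3 call was lost on the total count scale (log2 fold change -0.11, edgeR adjusted p = 0.850). For the insulin receptor Insr and the glucocorticoid receptor Nr3c1 the direction depends on the scale. Their log2 fold changes were -0.43 and -0.96 with TMM scaling, but 2.74 and 2.20 with total counts only, both below the median of all genes on that scale, 3.55. Of 7 genes of sugar digestion and uptake in the gut, 4 could be tested, of which 1 rose and none fell, against 39.2% higher and 27.8% lower over all genes. The gene that rose was the fructose transporter Slc2a5, with 37.9, 33.1 and 30.5 TPM in the tumours, against 0.65 and 0.47 TPM in normal pancreas, and the trehalase gene Treh had 0 counts in every library. Of 4 genes that break down glycogen inside cells, 3 rose: the lysosomal glucosidase Gaa (66.4, 51.1 and 68.7 TPM in the tumours, against 3.34 and 3.66 TPM in normal pancreas) and the phosphorylases Pygb and Pygl. All 6 neuroendocrine markers rose, with a summed level of 1719, 898 and 1514 TPM in the tumours, against 1.63 and 1.69 TPM in normal pancreas, and the smallest p were those of Scg5, Ncam1 and Syp. Across all genes 39.2% were called higher.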

How the data were processed

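Reads were trimmed, aligned and quantified with tools that the submitters' processing notes list as Trim Galore 0.60, STAR 2.7 and RSEM 1.31 (builds mm10 and GRCm38), with an annotation release not given in the sources used here. What the authors deposited were expected counts per gene, which RSEM divides between genes that share reads, and TPM values, which correct these for length and sum to the same total per library. The deposited gene lengths and effective lengths, values of another kind, served to work out the Amy2a5 transcripts. FPKM values were not used.

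Expected counts were rounded and tested over 16810 genes with edgeR 4.0.16 (R 4.3.3; quasi-likelihood test, TMM, filterByExpr, Benjamini-Hochberg). For the summed tests, member rows were replaced by their sum. Alternatives used limma 3.58.1, DESeq2 1.42.0, other scalings and omitted libraries. Shares were compared by exact permutation tests (SciPy 1.17.1). Replicates differed beyond counting noise (chi-square per degree of freedom 29.8 to 64.6). Intervals and floors cover counting error only. Depths were 6611967 to 15074489 counts in tumours and 48848987 and 51669489 in normal pancreas, and tissue and depth cannot be told apart. Names and positions come from GENCODE M21 (55094 of 55573 identifiers match with version) and RefSeq.

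Named genes are the members, Amy2-ps1, protein-coding genes within 500 kb, the 8 nearest profiles, and per list up to 3 tested genes with the smallest p and those at 0 throughout; others are named after their values were seen. Members and lists were chosen with earlier results of these data known, and some listed genes are not reported here and do not enter the list counts.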

Additional observations from a re-analysis of the deposited data

How the results depend on the processing

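The amylase sum was lower in the tumours in all 16 alternative fits with an adjusted p. It passed the threshold in 5 of them. By edgeR it passed with total counts only (log2 fold change -10.21, adjusted p = 0.00821), with no filter on low counts (-13.22, 0.00901) and without tumour 3 (-17.44, 0.00270). It also passed by limma on log2(TPM + 1) (-13.88, 0.000738) and on log2(TPM + 0.1) (-14.20, 0.000495). In the other 11 fits the sum did not pass, with an edgeR adjusted p of up to 0.266, the value without tumour 1. With a library left out its log2 fold change ran from -17.44 to -12.67. DESeq2 gave the sum no adjusted p. The cause of these shifts was not tested. Leaving a tumour out gave 3 to 7 single genes called lower, where 4384 to 4822 of all genes tested were called lower. DESeq2 called 4, with no adjusted p for the other 3, where it called 4584 of 16810 genes lower. Among the single genes, Amy1, Amy2a1 and Amy2b passed in every alternative with an adjusted p, Amy2a5 failed in 1, Amy2a2 and Amy2a3 in 3 each and Amy2a4 in 5. Over all genes, 4669 were lower and 6588 higher. These counts became 398 and 15679 with total counts only, 1173 and 10665 by limma on log2(TPM + 1), and 1192 and 11558 on log2(TPM + 0.1). The share of amylase counts and the Amy1 share kept their direction in all alternatives. With 79.5 amylase counts in tumour 2, single copies there are near the limit of detection. Fits without 1 normal library assume that the remaining one varies like the tumours. No paired analysis was possible because the labels do not pair any tumour with a normal library, and the replicate numbers used here mark no pairs.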
